A study of Canis lupus familiaris with 11 samples.

Results

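SRF, the cytoplasmic actins ACTB and ACTG1, and 7 genes whose proteins bind actin (CFL1, CFL2, VCL, TPM1, TPM4, FLNA and FHOD3) were followed through 11 RNA-seq libraries of MDCKII cells, an epithelial line from dog kidney. The 10 genes were taken by name from the authors' table of 26178 genes, through its gene name column or, for ACTB, CFL1 and FLNA, through the protein match in its description column, and all 10 were found. These names took 19 rows in all, and each gene is represented here by its row with the most reads. The groups were LMNA KO cells compressed (3 libraries), LMNA KO control cells (2), wild-type (WT) cells compressed (3) and WT control cells (3). All cells grew for 3 to 4 d until they formed a confluent layer. The compressed groups were then laterally compressed and allowed 2 h to recover before RNA was taken, whereas control cells were not compressed. LMNA encodes lamins A and C of the nuclear lamina. The KO cells are a derivative of the same line, and the sources used here do not give whether they are 1 clone, how the gene was disrupted, or whether replicates were separate cultures. The p-values therefore measure the spread between these libraries, which may be technical.

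SRF is a transcription factor that binds a short DNA element near the genes of the actin cytoskeleton and near many immediate early genes. Its cofactors of the MRTF family bind monomeric actin, and when monomers are used up by filament assembly they enter the nucleus and switch on SRF targets, among them the genes for actin itself. A second set of cofactors, the ternary complex factors (TCFs), links SRF to ERK signalling and to genes such as FOS and EGR1. In mouse cells without A-type lamins, nuclear entry of MRTF is known to be impaired. In kidney epithelium the proteins of these genes build the cortical actin belt, its links to cell junctions and the brush border.

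Library totals ran from 10420214 to 17999623 counts, and values per library are TMM-scaled CPM, that is, counts per 1e+06 counts of the library after scaling. LMNA itself was at 35.5, 25.5 and 43.6 CPM in KO compressed cells, 38.4 and 51.8 CPM in KO control cells, 841, 829 and 751 CPM in WT compressed cells and 679, 1208 and 933 CPM in WT control cells. KO libraries were thus all far below WT libraries, which goes with the labels. Epithelial markers were all detected, with a summed level of 4588 to 7945 CPM per library for 10 of 10 markers. Of 12 markers of fibroblasts and smooth muscle, ACTA2 had 1 read in all libraries together and LUM and DCN had 0, while the summed level of the list was 23.9 to 27.0 CPM in KO compressed, 30.6 to 30.8 CPM in KO control, 25.2 to 26.8 CPM in WT compressed and 29.1 to 31.8 CPM in WT control libraries, mostly from MYH11 and PDGFRA. Endothelial markers (6 of 7 found) summed to 0.0877 to 4.33 CPM and immune markers (8 of 8 found) to 5.15 to 12.7 CPM, with PTPRC, CD3E and MS4A1 at 0. WT compressed replicate 3 and KO compressed replicate 2 stood apart from the other 9 libraries on the first principal component, and had the fewest genes with a count (14218 and 14101, against 15109 to 15925 in the others), so results were also computed without both. All WT compressed libraries had fewer genes with a count (14218 to 15294) than the WT control libraries (15690 to 15925) and a lower mitochondrial share of counts (2.07% to 2.22%, against 2.61% to 3.84%), and the part of these measures in the compression values of WT cells was not tested. In KO cells the mitochondrial share was 2.90% to 4.74% after compression and 2.60% to 2.65% without it.

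The 10 genes spanned a wide range of RNA levels. On the authors' FPKM scale, which divides by the length of each gene model, the median over the 11 libraries was 2136 for ACTG1, 1327.7 for CFL1, 464 for TPM4, 442 for ACTB, 116 for TPM1, 112 for FLNA, 47.9 for VCL, 33.3 for CFL2, 11.2 for SRF and 1.67 for FHOD3. The models ran from 501 bases (CFL1) to 7941 bases (FLNA), and 5 of the 10 lengths were multiples of 3, as for coding sequence alone. Whether those models leave out other parts of the RNA was not tested, so the order of genes depends on the models. ACTG1 stood above CFL1, CFL1 above TPM4, ACTB above TPM1, FLNA above VCL and SRF above FHOD3 in all 11 libraries. TPM4 and ACTB could not be ordered, since TPM4 was the higher in 6 of 11 libraries, and the same held for TPM1 and FLNA, with TPM1 the higher in 6 of 11. VCL was above CFL2 in 9 of 11 libraries and CFL2 above SRF in 10 of 11. The range for ACTG1 was 1497 to 3168 FPKM and that for FHOD3 0.463 to 3.07 FPKM. The pooled SD within groups on the log2 scale was below the all-gene median of 0.31 for 8 of the 10 genes, and above it for FLNA (0.33) and FHOD3 (0.32). That median covers tested genes of every RNA level and was not matched to the levels of these 10.

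**Figure D1:**
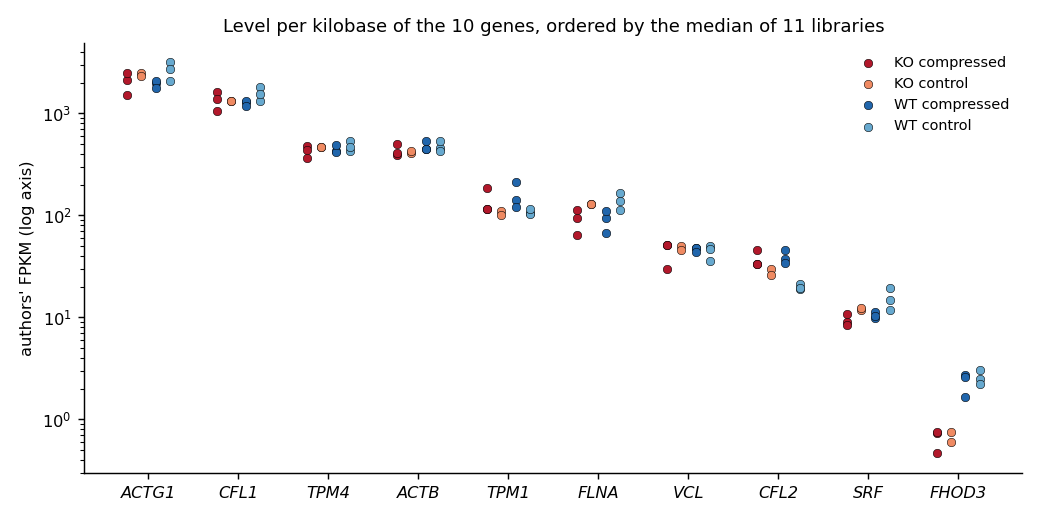
Authors' FPKM of the 10 genes (log axis), ordered by the median of 11 libraries, with 1 point per library coloured by group. ACTG1 (median 2136 FPKM) lies highest and FHOD3 (median 1.67 FPKM) lowest, and the KO libraries of FHOD3 lie below its WT libraries.

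Across the comparisons, edgeR called 2 of the 10 genes. CFL2 RNA rose 2.00-fold after compression in WT cells, and FHOD3 RNA was lower in KO than in WT cells, with and without compression. Among all genes edgeR called 6.25% for compression in WT cells. For KO against WT it called 0.789% with and 0.339% without compression. In both genotypes CFL2 and TPM1 were higher, and SRF and FLNA lower, in every compressed library than in every control library of the same genotype, although of these values only that of CFL2 in WT cells passed the threshold in edgeR. Of all genes 6.07% were higher and 6.1% lower without overlap in both genotypes. Within WT cells alone the shares were 21.2% and 20.8%, and within KO cells 13.5% and 14%. ACTG1, ACTB, CFL1, VCL and TPM4 overlapped between the groups in each of the 4 comparisons. In bulk RNA, fewer cells of a kind and less RNA per cell cannot be told apart.

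**Figure D2:**
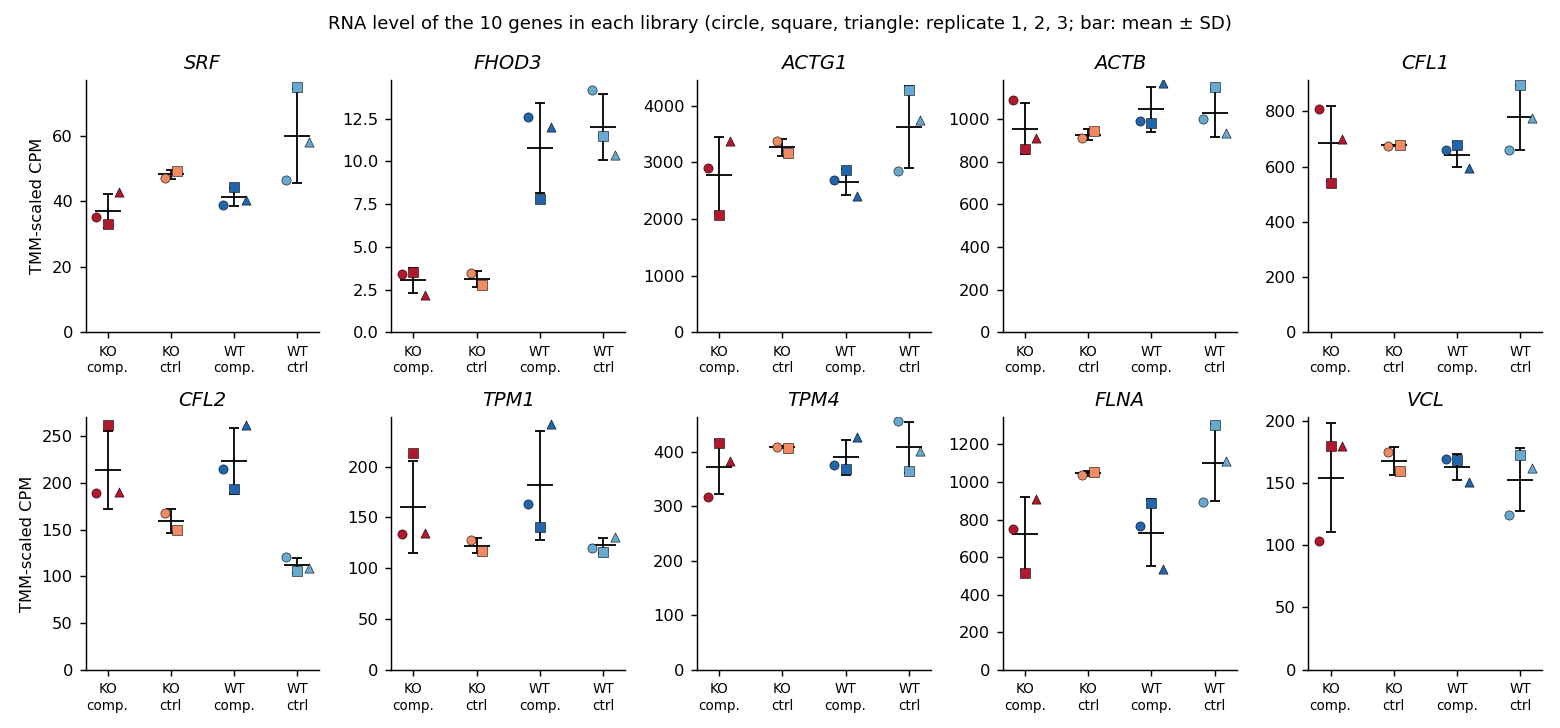
TMM-scaled CPM of each gene in KO compressed, KO control, WT compressed and WT control cells, 1 panel per gene with an axis from 0. Symbols are replicates 1 (circle), 2 (square) and 3 (triangle), and bars are the mean ± SD. FHOD3 separates by genotype (2.17 to 3.51 CPM in KO and 7.79 to 14.2 CPM in WT libraries), and CFL2 lies lowest in WT control libraries (105 to 121 CPM).

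SRF (chromosome 12, 11664708 to 11673906, plus strand, CanFam3.1) had 35.2, 33.2 and 42.9 CPM in KO compressed cells and 47.2 and 49.2 CPM in KO control cells. In WT cells it had 39.0, 44.5 and 40.5 CPM after compression and 46.5, 74.9 and 58.1 CPM without it. Each compressed library was thus below each control library of its genotype, with WT control replicate 2 the highest of all. The log2 fold change after compression was -0.38 ± 0.21 (SE) in KO cells (adjusted p = 0.773 by the quasi-likelihood test of edgeR, Benjamini-Hochberg adjusted over all genes) and -0.53 ± 0.19 in WT cells (edgeR adjusted p = 0.0847). Neither passed the threshold of 0.05. In WT cells the adjusted p was 0.0403 with DESeq2, 0.0394 by edgeR without WT control replicate 1 (log2 fold change -0.69) and 0.046 by edgeR without KO compressed replicate 2, a library that enters only through the shared estimate of the spread. Without WT control replicate 2 the WT value was -0.34 (edgeR adjusted p = 0.304). The 2 compression effects differed by 0.16 ± 0.28 on the log2 scale (KO minus WT, interaction, edgeR adjusted p = 0.948), and SRF in control cells was at -0.31 ± 0.21 (KO over WT, edgeR adjusted p = 0.797).

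The cytoplasmic actins took between 0.281% and 0.561% of all counts in a library. ACTG1, gamma-actin (chromosome 9, 635976 to 637805, plus strand), had 2909, 2065 and 3377 CPM in KO compressed cells and 3376 and 3162 CPM in KO control cells. In WT cells it had 2694, 2869 and 2404 CPM after compression and 2840.1, 4269 and 3753 CPM without it. The groups overlapped in both genotypes, with KO compressed replicate 2 and WT compressed replicate 3 the lowest of the 11 libraries. Compression gave a log2 fold change of -0.23 ± 0.20 in KO cells (edgeR adjusted p = 0.811) and -0.45 ± 0.18 in WT cells (edgeR adjusted p = 0.118), the WT value passing only without KO compressed replicate 2 (edgeR adjusted p = 0.0494). The KO value was -0.06 without KO compressed replicate 2.

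ACTB, beta-actin (chromosome 6, 12421735 to 12424679, plus strand), kept to a narrow range. It had 1090.4, 861 and 913 CPM in KO compressed cells, 911 and 945 CPM in KO control cells, 991, 979 and 1168 CPM in WT compressed cells and 999, 1149.9 and 933 CPM in WT control cells. All 4 groups overlapped, and the log2 fold change after compression was 0.04 ± 0.16 in KO and 0.03 ± 0.14 in WT cells (edgeR adjusted p = 0.959 and 0.909), with a sign that turned in KO cells without KO compressed replicate 1 and in WT cells when WT control replicate 3, WT compressed replicate 3 or both libraries that stood apart were left out. The FPKM ratio of ACTG1 to ACTB averaged 4.71 ± 1.11 in KO compressed cells (SD, n = 3) and 5.68 ± 0.411 in KO control cells (SD, n = 2), with an exact two-sided permutation p of 0.4. In WT cells it averaged 4.14 ± 0.732 after compression and 5.68 ± 0.984 without it (SD, n = 3 each, exact permutation p = 0.2), so the shift was within the spread of the libraries. The coding sequences of the cytoplasmic actins are closely similar and the sources used here do not give how reads that fit both were counted, so their split is uncertain. A further row with the ACTB protein match, on chromosome X, had 0 reads.

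FHOD3 (chromosome 7, 53479043 to 53654317, minus strand) is a formin, a protein that nucleates and elongates unbranched actin filaments, best known for building sarcomeres in mouse heart. It had 3.43, 3.51 and 2.17 CPM in KO compressed cells, against 12.6, 7.79 and 12.01 CPM in WT compressed cells. In control cells it had 3.47 and 2.77 CPM in KO libraries, against 14.2, 11.5 and 10.4 CPM in WT libraries. Every KO library was below every WT library, at counts of 35 to 63 in KO and 92 to 180 in WT libraries, a depth that leaves a visible counting error.

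FHOD3 RNA was lower in KO cells by both comparisons of genotype. Their groups share no library, but both tests use 1 estimate of the spread from all 11 libraries, and both compare the same KO and WT lines. After compression the log2 fold change of FHOD3 was -1.84 ± 0.30 (edgeR adjusted p = 0.00981), where 0.789% of the 13560 genes tested were called and 0.28% were called lower. In control cells it was -1.94 ± 0.34 (edgeR adjusted p = 0.0239), where 0.339% of genes were called and 0.206% were called lower. FHOD3 was the only one of the 10 genes called in either comparison, and the only one lower without overlap, as 7.82% of all genes were after compression and 15% in control cells. None of the 10 was higher without overlap after compression, against 7.92% of all genes. The call after compression was lost without WT compressed replicate 1 (edgeR adjusted p = 0.06), without KO compressed replicate 3 (0.0546), in a fit of both compressed groups alone (0.0573) and with limma on log2(FPKM + 1) (0.0788). The call in control cells was lost without WT control replicate 1, 2 or 3 (edgeR adjusted p = 0.0542, 0.0626 and 0.0742), without WT compressed replicate 1 (0.0545), without KO control replicate 1 or 2 (0.283 and 0.486), and with limma (0.18), while the direction was kept under all 18 alternatives.

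Compression left FHOD3 within the spread of the libraries, at a log2 fold change of -0.05 ± 0.33 in KO cells (edgeR adjusted p = 0.98, with a sign that turned without KO control replicate 1 or KO compressed replicate 3) and -0.15 ± 0.28 in WT cells (edgeR adjusted p = 0.726, turning without WT compressed replicate 2). A locus that the authors assembled from reads and matched to FHOD3 lies on the same strand of chromosome 7, at 53723040 to 53933555, 68722 bases beyond the annotated gene on the side of its start. It had 126 reads in all, 0 to 29 per library, and a log2 fold change of -2.29 ± 1.14 in KO against WT control cells (edgeR adjusted p = 0.677) and -0.98 ± 0.98 after compression (edgeR adjusted p = 0.779). These reads were too few to show whether the locus follows the gene.

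CFL2, the cofilin isoform named for muscle (chromosome 8, 13575759 to 13582670, minus strand), severs and depolymerises actin filaments. It had 215, 193 and 263 CPM in WT compressed cells, against 121, 105 and 109 CPM in WT control cells. All 3 compressed libraries were above all 3 control libraries. CFL2 rose by 1.00 ± 0.17 on the log2 scale (edgeR adjusted p = 0.041) and was the only one of the 10 genes called in this comparison, in which 6.25% of the 13560 genes were called and 3.85% were called higher. The call depended on which libraries were kept. The edgeR adjusted p was 0.0843 and 0.118 without WT control replicate 2 or 3, 0.132, 0.0501 and 0.184 without WT compressed replicate 1, 2 or 3, and 0.076 and 0.0765 without KO control replicate 1 or 2, and limma on log2(FPKM + 1) gave 0.054, while the call held without WT control replicate 1 or any 1 of the KO compressed libraries. The log2 fold change stayed between 0.87 and 1.09 throughout, and without both libraries that stood apart the gene was called at 0.87 (edgeR adjusted p = 0.0146).

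In KO cells CFL2 had 189, 262 and 190.5 CPM after compression and 168 and 150.0 CPM without it. The groups did not overlap here either, the highest library being KO compressed replicate 2. The fitted log2 fold change was 0.43 ± 0.19 (edgeR adjusted p = 0.773), and 0.25 without that library. In control cells both KO libraries were above all WT libraries, by 0.51 ± 0.19 (edgeR adjusted p = 0.523), a separation that 16.9% of all genes showed, whereas after compression KO and WT libraries overlapped, at -0.06 ± 0.17 (edgeR adjusted p = 0.924, a sign that turned without WT compressed replicate 3 or KO compressed replicate 1 or 3). The fitted compression effect was smaller in KO than in WT cells by 0.57 ± 0.25 on the log2 scale, an interaction that did not pass (unadjusted p = 0.039, edgeR adjusted p = 0.939). The other 9 genes had interaction values from -0.21 (VCL) to 0.29 (CFL1), and edgeR called none of the 10 and 0% of all genes, with 1 of the 10 (CFL2) and 4.79% of all genes at an unadjusted p below 0.05.

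CFL1, the non-muscle cofilin (chromosome 18, 51406706 to 51407693, plus strand), was the more abundant isoform in all libraries. It had 810.2, 540.4 and 701 CPM in KO compressed cells, 676 and 679 CPM in KO control cells, 659, 678 and 594 CPM in WT compressed cells and 661, 897 and 776 CPM in WT control cells. The groups overlapped, at a log2 fold change of 0.01 ± 0.18 in KO and -0.27 ± 0.16 in WT cells (edgeR adjusted p = 0.991 and 0.256). The KO value turned without KO compressed replicate 1 or 3. Of 5 further rows with the CFL1 protein match, 3 are annotated as pseudogenes with 7 reads or fewer, and the largest, on chromosome 7, had 259 reads against 110034 for the row used.

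The FPKM ratio of CFL2 to CFL1 was 0.0291, 0.0254 and 0.0394 in WT compressed cells, against 0.0163, 0.0105 and 0.0126 in WT control cells. In KO cells it was 0.0208, 0.0433 and 0.0242 after compression and 0.0222 and 0.0197 without it. The gene models measure 5620 bases for CFL2 and 501 bases for CFL1. The level of the ratio depends on these lengths, whereas its comparison between groups does not. The groups were apart in WT cells and overlapped in KO cells. The exact two-sided permutation p was 0.1 in WT cells, the smallest that 3 against 3 libraries allow, and 0.4 in KO cells, where 0.2 is the smallest.

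**Figure D3:**
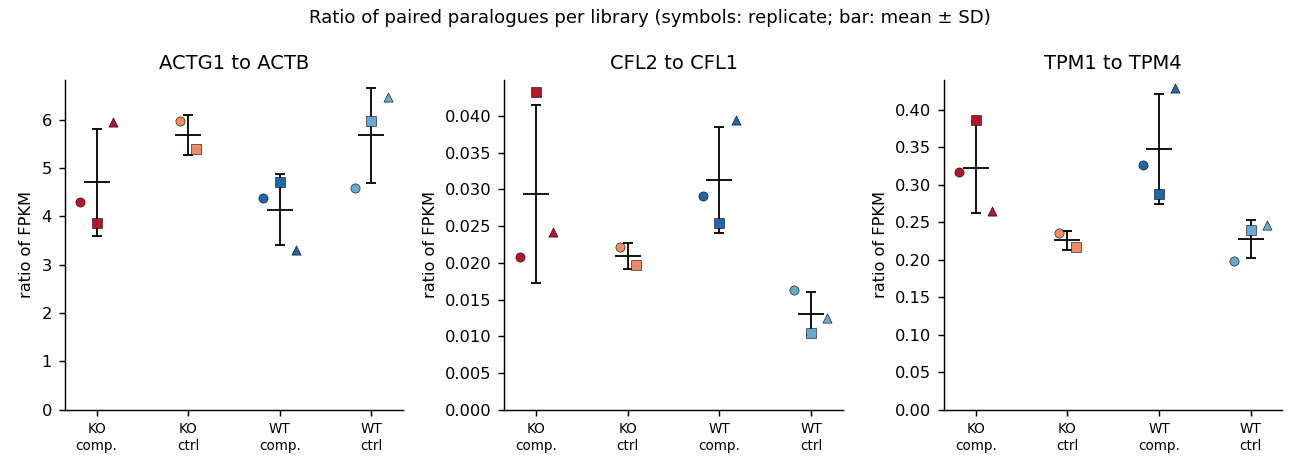
Ratio of authors' FPKM per library for ACTG1 to ACTB, CFL2 to CFL1 and TPM1 to TPM4, by group, with axes from 0, symbols for replicates 1 (circle), 2 (square) and 3 (triangle), and bars for the mean ± SD. TPM1 to TPM4 is higher in every compressed library (0.265 to 0.428) than in every control library (0.198 to 0.246), and CFL2 to CFL1 is lowest in WT control cells (0.0105 to 0.0163).

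Tropomyosins coil along actin filaments and govern which proteins can bind them. TPM1 (chromosome 30, 27636259 to 27664073, plus strand) had 134, 213 and 135 CPM in KO compressed cells and 128 and 117 CPM in KO control cells. In WT cells it had 163, 140.3 and 242 CPM after compression and 120.0, 116 and 131 CPM without it. Compressed libraries were above control libraries in both genotypes, and the highest were WT compressed replicate 3 and KO compressed replicate 2, the libraries that stood apart. TPM1 had a log2 fold change of 0.39 ± 0.25 in KO cells (edgeR adjusted p = 0.773) and 0.57 ± 0.22 in WT cells (edgeR adjusted p = 0.0989), and the WT value passed only without KO compressed replicate 2 (edgeR adjusted p = 0.0364). Leaving out WT compressed replicate 3 and KO compressed replicate 2 cannot make separated groups overlap, so it is no check on the separation. The lowest WT value among the alternatives was 0.31. The KO value was 0.13 without KO compressed replicate 2.

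TPM4 (chromosome 20, 46356186 to 46376425, minus strand) had 317, 415 and 383 CPM in KO compressed cells, 409 and 406 CPM in KO control cells, 375, 368 and 426 CPM in WT compressed cells and 456, 365 and 402 CPM in WT control cells. The groups overlapped, at a log2 fold change of -0.13 ± 0.16 in KO and -0.07 ± 0.14 in WT cells (edgeR adjusted p = 0.847 and 0.775), the WT value turning to 0.02 without WT control replicate 1. The FPKM ratio of TPM1 to TPM4 was 0.323 ± 0.0607 in KO compressed cells (SD, n = 3) and 0.226 ± 0.0129 in KO control cells (SD, n = 2). In WT cells it was 0.347 ± 0.0728 after compression and 0.228 ± 0.0259 without it (SD, n = 3 each). No compressed library overlapped a control library, with an exact permutation p of 0.2 in KO and 0.1 in WT cells, each the smallest the group sizes allow. A second row named TPM4 by its protein match lies within TPM1 on the opposite strand and had 529 reads against 22442 for TPM1. The sources used here do not give whether the kit marks strand, and whether the reads of this row come from TPM1 was not tested. After compression its log2 fold change was -0.63 ± 0.44 in KO and -0.93 ± 0.39 in WT cells (edgeR adjusted p = 0.776 and 0.121), opposite in sign to that of TPM1.

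FLNA, filamin A, cross-links actin filaments into a gel and ties them to integrins (chromosome X, 122061570 to 122083141, plus strand). It had 750.4, 518 and 908 CPM in KO compressed cells and 1038 and 1054 CPM in KO control cells. In WT cells it had 765, 889 and 537 CPM after compression and 896, 1302 and 1110.3 CPM without it. Compressed libraries were below control libraries in both genotypes, narrowly so in WT cells, where 889 CPM in compressed replicate 2 stood next to 896 CPM in control replicate 1. FLNA had a log2 fold change of -0.53 ± 0.24 in KO cells (edgeR adjusted p = 0.773) and -0.59 ± 0.22 in WT cells (edgeR adjusted p = 0.093). The WT value passed without the filter on low counts (edgeR adjusted p = 0.0487) and on leaving out KO compressed replicate 2 (0.0377). The KO value was -0.32 without both libraries that stood apart. FLNA overlaps IKBKG on the same strand, which had 5226 reads in all against 143602 for FLNA.

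VCL, vinculin, links cadherin and integrin adhesions to actin (chromosome 4, 24404389 to 24518259, plus strand). It had 103, 179 and 179.7 CPM in KO compressed cells, 175 and 159 CPM in KO control cells, 169, 169 and 151 CPM in WT compressed cells and 124, 172 and 162 CPM in WT control cells. All groups overlapped. The log2 fold change was -0.12 ± 0.22 in KO and 0.09 ± 0.20 in WT cells (edgeR adjusted p = 0.909 and 0.77), and the sign turned without KO compressed replicate 1 in KO cells and without WT control replicate 1 in WT cells.

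**Figure D4:**
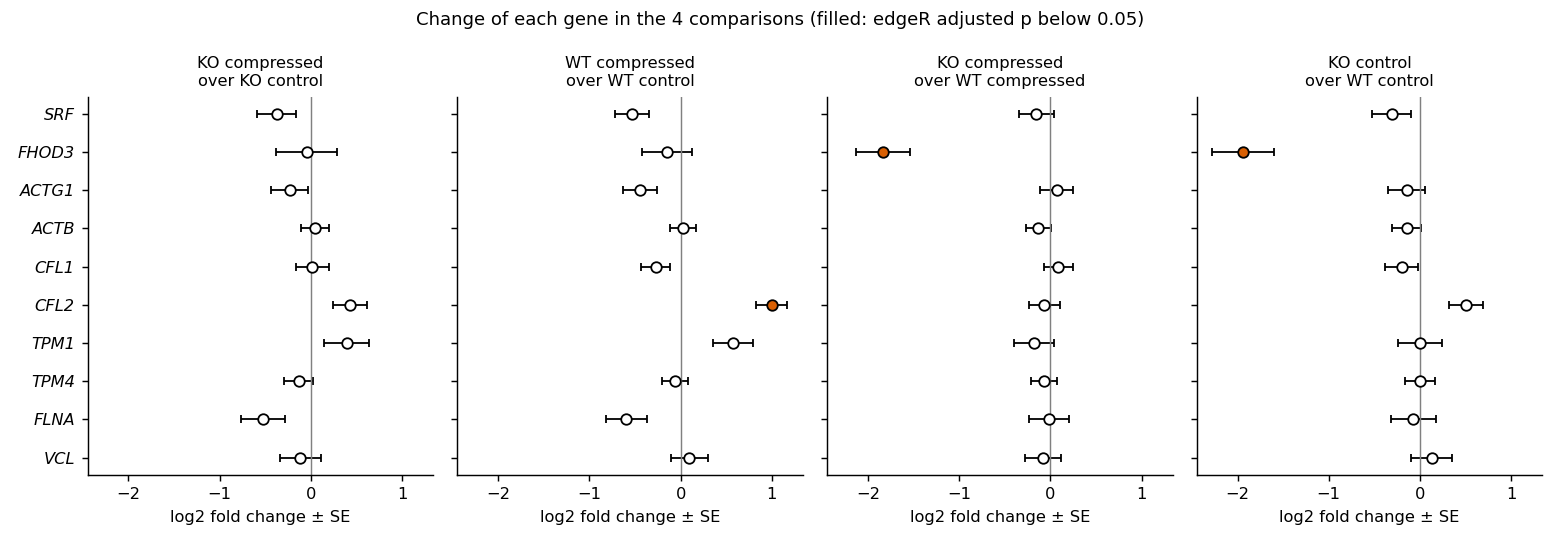
Log2 fold change ± SE of the 10 genes for KO compressed over KO control, WT compressed over WT control, KO compressed over WT compressed, and KO control over WT control, with filled points for an edgeR adjusted p below 0.05. CFL2 is filled for compression in WT cells (1.00) and FHOD3 for both comparisons of KO with WT (-1.84 and -1.94).

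The separation of the groups was set against that of all genes tested. After compression in KO cells 2 of the 10 genes were higher and 2 lower without overlap, where 13.5% of all genes were higher and 14% lower. In WT cells the counts were again 2 higher and 2 lower, against 21.2% and 20.8% of all genes. These shares are near the background, so separation within 1 genotype sets none of the 10 genes apart. Separation in the same direction in both genotypes, which share no library, held for CFL2 and TPM1 (higher) and SRF and FLNA (lower), where 6.07% of all genes were higher in both and 6.1% lower in both. Leaving out the 2 libraries that stood apart cannot undo a separation, so it is no check on these 4 genes. Without them 6.96% of all genes were higher and 6.93% lower in both genotypes. In these 2 libraries CFL2 and TPM1 were the 2 highest of 11, and ACTG1, CFL1 and FLNA the 2 lowest, and the part of these libraries' difference in the compression values was not tested beyond leaving them out.

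The median log2 fold change of the 10 genes was -0.08 for compression in KO cells, -0.11 in WT cells, -0.07 for KO against WT after compression and -0.11 in control cells. Over all genes tested the median lay between -0.02 and -0.0036 in these comparisons. After compression 6 of the 10 genes were negative in each genotype. After compression in KO cells edgeR called 0 of the 10 genes and 0% of all genes, with 2 of the 10 (CFL2 and FLNA) and 6.11% of all genes at an unadjusted p below 0.05, and DESeq2 and limma each called 1 gene of the table and none of the 10.

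The profile of SRF over the 11 libraries was compared with that of 10478 genes by the root mean square distance between centred log2 CPM values, a measure in which 0 means the same profile. The nearest genes were PPP6R1 and TAOK2 at 0.10, DAZAP1 at 0.10 and ARF6 at 0.11. PPP6R1, a regulatory subunit of a protein phosphatase, averaged 137 CPM in KO compressed, 163 CPM in KO control, 146 CPM in WT compressed and 211 CPM in WT control cells. Of the other 9 genes ACTG1 lay nearest to SRF, at 0.16 and rank 71 of the 10478, before FLNA at 0.21 (rank 514) and CFL1 at 0.23 (rank 812). CFL2 at 0.73 (rank 9795) and FHOD3 at 0.90 (rank 10250) lay farthest. These distances are a description over 11 libraries that share groups and depth.

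The wider pathway was read from 10 lists with 123 genes, of which 99 were tested. In WT cells 2 of the 99 rose after compression and 5 fell, where 3.85% of all genes were called higher and 2.4% lower. The calls were ARPC3 and TWF1 (higher) and FOS, NR4A1, MKL1, ZYX and LIMK2 (lower). Each of the 7 calls was lost without WT control replicate 2 or 3, any 1 of the WT compressed libraries, or either KO control library, those of ZYX and LIMK2 also without WT control replicate 1, with edgeR adjusted p from 0.0501 to 0.199, and in no case did the direction turn. The number called among the 99 was 0 in each of those fits, 12 on leaving out WT control replicate 1 and 26 on leaving out KO compressed replicate 2. The calls of MKL1, ARPC3 and LIMK2 were also lost without both libraries that stood apart (edgeR adjusted p = 0.0543, 0.0864 and 0.0597). Of the 99, 0 were called by edgeR in the other comparisons, against 2 by DESeq2 in KO against WT compressed cells. Among the 7 calls the log2 interaction (KO minus WT) was 2.83 ± 0.78 for NR4A1, 1.07 ± 0.40 for ZYX and 0.88 ± 0.36 for LIMK2. For TWF1 it was -0.85 ± 0.27 and for ARPC3 -0.22 ± 0.24. Each had an edgeR adjusted p of 0.939, and, except ARPC3, an unadjusted p below 0.05, beside 4.79% of all genes. In KO cells NR4A1 averaged 3.85 CPM after and 4.08 CPM without compression, ZYX 124 and 119 CPM, and TWF1 412 and 373 CPM.

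Among 6 tested cofactors of SRF, MKL1, the gene of the actin-binding cofactor MRTF-A, fell in WT cells to 73.5 ± 16.0 CPM after compression, against 115 ± 3.00 CPM without it (SD, n = 3 each), a log2 fold change of -0.65 ± 0.18 (edgeR adjusted p = 0.0475). In KO cells it averaged 80.9 ± 11.5 CPM after compression (SD, n = 3) and 91.4 ± 4.13 CPM without it (SD, n = 2), with overlap and a log2 fold change of -0.18 ± 0.19 (edgeR adjusted p = 0.836). The interaction for MKL1 did not pass, at 0.48 ± 0.26 on the log2 scale (KO minus WT, edgeR adjusted p = 0.939). The other 5 cofactors were not called by edgeR, and the list median was -0.27 in KO and 0.08 in WT cells.

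Of 9 genes that SRF controls with the TCFs, 2 fell in WT cells and 0 rose. Among all genes 2.4% were called lower and 3.85% higher. FOS, an AP-1 subunit, averaged 35.2 ± 4.32 CPM in WT compressed and 80.6 ± 17.4 CPM in WT control cells (SD, n = 3 each), a log2 fold change of -1.20 ± 0.18 (edgeR adjusted p = 0.041). NR4A1, an orphan nuclear receptor, averaged 0.844 ± 0.325 CPM in WT compressed and 6.30 ± 2.28 CPM in WT control cells, at -2.89 ± 0.55 (edgeR adjusted p = 0.041), which is a few reads per compressed library. FOSB, at -2.71 ± 0.88, was not called (edgeR adjusted p = 0.0695), but passed without the filter on low counts (0.0161). The median of the list was -1.33 with 8 of 9 genes negative in WT cells, and -0.83 with 9 of 9 negative in KO cells, where edgeR called no gene. Over all genes tested 48.5% were positive in WT and 49.4% in KO cells. In KO cells FOS was at 49.3 ± 3.55 CPM after compression (SD, n = 3) and 92.8 ± 1.91 CPM without it (SD, n = 2), EGR1 had a log2 fold change of -1.05 ± 0.33 and JUNB one of -1.90 ± 0.56, with no overlap between groups for any of the 3 (edgeR adjusted p = 0.773 each). These 3 had the smallest p of the list, and 14% of all genes were lower without overlap in this comparison.

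Of 18 tested targets of SRF with MRTF, 1 fell in WT cells and 0 rose, beside 2.4% and 3.85% of all genes. ZYX, zyxin, which gathers at tensed actin bundles and adhesions, averaged 86.3 ± 15.0 CPM in WT compressed and 175 ± 18.3 CPM in WT control cells (SD, n = 3 each), a log2 fold change of -1.02 ± 0.27 (edgeR adjusted p = 0.0456). SMTN, smoothelin, at -0.60 ± 0.17, and AMOTL2, which binds actin at junctions, at -0.58 ± 0.17, were not called (edgeR adjusted p = 0.0521 and 0.0549). Both were called by DESeq2 (adjusted p = 0.00882 and 0.0139). The median was -0.38 with 15 of 18 negative in WT cells and -0.05 with 11 of 18 negative in KO cells, where AMOTL2 was at -0.70 ± 0.19 (edgeR adjusted p = 0.773) and edgeR called none.

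**Figure D5:**
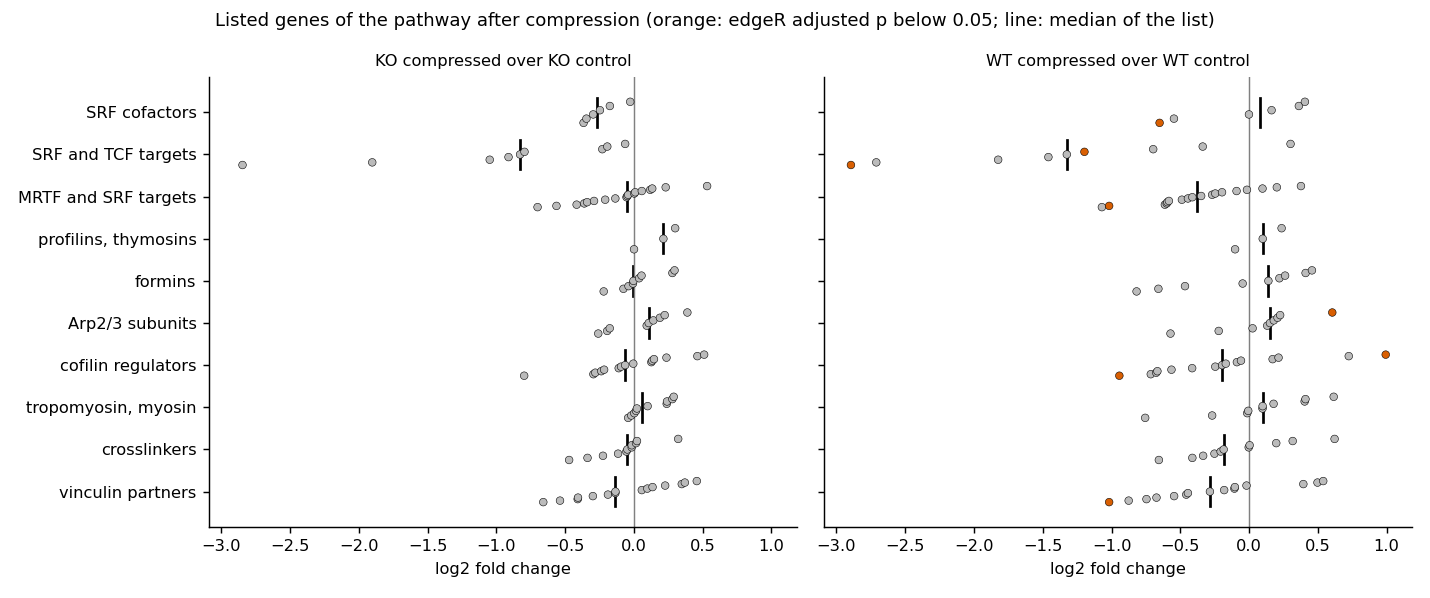
Log2 fold change after compression of the tested genes of 10 lists, KO compressed over KO control on the left and WT compressed over WT control on the right, 1 point per gene, orange for an edgeR adjusted p below 0.05 and a line at each list's median. Orange points appear in WT cells alone (7 genes, ZYX being drawn in 2 lists), and the median of the SRF and TCF targets lies at -0.83 in KO and -1.33 in WT cells.

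The genes that build filaments gave 1 call by edgeR. None of 9 other formins was called by edgeR in WT cells, among them INF2 at -0.66 ± 0.21 and FHOD1, the closest relative of FHOD3, at -0.82 ± 0.30 (edgeR adjusted p = 0.063 and 0.0888). Both passed with DESeq2 (adjusted p = 0.0189 and 0.0399) and in an edgeR fit of the WT groups alone (0.0352 and 0.0476). The Arp2/3 complex nucleates branched filaments, and of its 9 subunit genes ARPC3 rose to 255 ± 32.8 CPM in WT compressed cells, against 168 ± 27.8 CPM in WT control cells (SD, n = 3 each, log2 fold change 0.60 ± 0.16, edgeR adjusted p = 0.0471). ARPC1B had a log2 fold change of -0.57 ± 0.22 (edgeR adjusted p = 0.101), so subunits of 1 complex had values of opposite sign. In KO cells ARPC3 was at 0.39 ± 0.18 (edgeR adjusted p = 0.773). The 3 tested genes among profilins, thymosins and further actins were not called by edgeR.

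Of 15 tested regulators of cofilin and filament turnover, 1 rose and 1 fell in WT cells, beside 3.85% and 2.4% of all genes. TWF1, twinfilin, which binds actin monomers and caps filament ends, averaged 512 ± 37.5 CPM in WT compressed and 257 ± 41.8 CPM in WT control cells (SD, n = 3 each), a log2 fold change of 0.99 ± 0.18 (edgeR adjusted p = 0.041). LIMK2, a kinase that inactivates cofilin by phosphorylation, averaged 49.2 ± 3.52 CPM in WT compressed and 94.6 ± 39.4 CPM in WT control cells, at -0.94 ± 0.24 (edgeR adjusted p = 0.0448). Without WT control replicate 1 its value was -0.55. LIMK1, which does the same, was at -0.71 ± 0.25 (edgeR adjusted p = 0.0814, DESeq2 adjusted p = 0.0347). In KO cells DSTN, destrin, the third member of the cofilin family, was at 0.51 ± 0.24 with no overlap (edgeR adjusted p = 0.773). There 13.5% of all genes were higher without overlap. In control cells TWF1 averaged 373 ± 6.64 CPM in KO cells (SD, n = 2) and 257 ± 41.8 CPM in WT cells (SD, n = 3), and PDXP, a cofilin phosphatase, had a log2 fold change of -0.90 ± 0.28, both short of the threshold (edgeR adjusted p = 0.525 and 0.371).

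By edgeR, no gene was called among 10 tested tropomyosin and myosin genes, 11 cross-linkers and, ZYX apart, 15 partners of vinculin. The values of smallest p in WT cells were MYH14, a non-muscle myosin heavy chain, at -0.76 ± 0.22, PPP1R12A, a subunit of myosin phosphatase, at 0.62 ± 0.25, the cross-linker ACTN1 at -0.41 ± 0.14, and the adhesion proteins PXN at -0.67 ± 0.20 and SORBS3 at -0.88 ± 0.27 (edgeR adjusted p = 0.0535, 0.116, 0.0747, 0.0571 and 0.0602). With DESeq2 in WT cells MYH14, ACTN1, PXN and SORBS3 passed (adjusted p = 0.0124, 0.0332, 0.0173 and 0.0161). MYH14 had a log2 fold change of 0.91 ± 0.22 in KO against WT compressed cells (edgeR adjusted p = 0.0861), EVL, an elongation factor at filament ends, one of 0.66 ± 0.21 (0.192), and NR4A1 one of 2.20 ± 0.55 (0.104), while MYH14 and NR4A1 passed with DESeq2 (adjusted p = 0.00849 and 0.00822). In control cells ACTN1 was at -0.41 ± 0.16 and the bundling protein FSCN1 at -0.81 ± 0.35, KO over WT (edgeR adjusted p = 0.549 and 0.609). VASP, which elongates filaments at adhesions, was at -0.54 ± 0.24 after compression in KO cells (edgeR adjusted p = 0.773).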

How the data were processed

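Gene-level RNA-seq of 11 MDCKII libraries was analysed. Per the labels' protocols, mRNA was enriched on oligo(dT) beads and primed with random hexamers. HISAT2 (2.0.5), FastQC, CASAVA and the build CanFam3.1 are named in the submitters' processing notes, while the counter used is not. Deposited values are raw counts per gene and FPKM, which are these counts per kilobase and per 1e+06 of an effective library size 0.964 to 1.049 times the total. No row named no gene. Groups and replicate numbers came from the sample titles, which name compression and recovery. The series' design text names instead day 7 and 2 h after reseeding, for wild-type cells only, and the titles were followed. No replicates were identical or agreed within sampling noise (lowest chi-square per gene 6.09).

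Counts were fitted in R 4.3.3 with edgeR 4.0.16 (filterByExpr, 13560 genes; TMM; 4 groups over 11 libraries, 7 residual degrees of freedom; quasi-likelihood tests, two-sided, Benjamini-Hochberg over all genes, threshold 0.05). The SE is the fold change divided by the root of F. The fit was tested on simulated data. FPKM served for levels between genes and for ratios, tested by exact permutation over libraries. Alternatives were DESeq2 1.42.0, RLE scaling, no filter, limma 3.58.1 on log2(FPKM + 1), the groups compared alone, a term for replicate number and leaving out each library. The fit without the 2 libraries that stood apart was chosen after seeing the data. At this depth genes near 1 CPM have few reads.

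The 10 genes and all lists were chosen with earlier results of these data known. Named beside them are up to 3 genes per list and comparison with the smallest p, LMNA, and the 4 genes nearest to SRF among symbols with a mean of at least 2 CPM.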

Additional observations from a re-analysis of the deposited data

How the results depend on the processing

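Of 50 values (10 genes in 5 comparisons), 26 changed sign under at least 1 of up to 18 alternatives, none of them called. CFL2 in compressed WT cells and FHOD3 in KO cells kept their direction under all. The replicate numbers showed little pairing of the libraries (15 same-numbered pairs, correlation of deviations -0.35 to 0.20, 1 above 0.1, and 1 of 11 libraries nearest to its own number). In a group of 2 libraries the deviations mirror each other, and 2 libraries stood apart, so this measure cannot exclude shared batches. Counts of calls depended strongly on the fit, and the cause was not tested. For compression in WT cells (848 genes, 1 of the 10, 7 of the listed) the numbers called were 2479, 2 and 17 with DESeq2, 1754, 2 and 13 with no filter, 0, 0 and 0 with limma, 2069 genes and 18 listed with both groups alone, 0, 0 and 0 with the replicate block, and 0 to 3066, 0 to 5 and 0 to 26 leaving out 1 library. For compression in KO cells (0 genes) DESeq2 and limma called 1 each. For KO against WT control cells (46 genes, 1 of the 10) they were 125 with DESeq2, 90 with no filter, 16 and 0 with limma, 15 and 0 with the replicate block, 111 genes without the 2 libraries that stood apart, and 6 to 106 and 0 to 1 leaving out 1 library. For KO against WT after compression (107 genes, 1 of the 10, 0 listed) they were 353 genes and 2 listed with DESeq2, 201 and 2 with no filter, 59 genes and 0 of the 10 with limma, 64 and 0 with the groups alone, 53 genes with the replicate block, and 39 to 349, 0 to 1 and 0 to 5 leaving out 1 library. The interaction (0 genes) gave 0 to 1. FHOD3 with the replicate block was at -2.01 in control cells (edgeR adjusted p = 0.0828) and CFL2 in WT cells at 1.00 (0.111), and no other call of the 10 genes changed with the block.

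Leaving out 1 library turned the sign of ACTB (-0.06 to 0.114), VCL (-0.035 to 0.189), TPM4 (-0.14 to 0.023) and FHOD3 (-0.279 to 0.037) for compression in WT cells. It did so for ACTB (-0.065 to 0.11), CFL1 (-0.126 to 0.157), VCL (-0.243 to 0.102) and FHOD3 (-0.203 to 0.153) in KO cells, for CFL2 in KO against WT after compression (-0.239 to 0.066), and in the interaction for SRF (-0.034 to 0.311) and VCL (-0.338 to 0.008). At least 1 alternative also turned ACTB, ACTG1, CFL1, VCL, TPM1, TPM4 and FLNA in KO against WT after compression. The same held for TPM1, TPM4 and FLNA in control cells, and for ACTB, TPM1, TPM4, FLNA and FHOD3 in the interaction. Compression in KO cells gave CFL1 -0.005 with limma and FHOD3 0.02 with the replicate block. Without the 2 libraries that stood apart, ACTB was at -0.058 for compression in WT cells and at 0.046 for KO against WT after compression. FHOD3, with 35 to 63 reads per KO library, and NR4A1, with few reads per compressed WT library, carry a counting error at this depth.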
